A study of Mus musculus with 8 samples.

Results

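Small structured RNAs that form the core of ribonucleoprotein machines were followed in chromatin and cytoplasm of mouse embryonic fibroblasts, with and without heat shock. The set holds 6 genes chosen by Ensembl identifier, of which 5 are among the 28785 genes listed in at least 1 library: Rn7sk (ENSMUSG00000065037), Rn7s1 (ENSMUSG00000099021), Rn7s2 (ENSMUSG00000099250), Rmrp (ENSMUSG00000088088), Rpph1 (ENSMUSG00000092837) and Terc (ENSMUSG00000064796). Of these 6, Rn7sk, Rmrp, Rpph1 and Terc had reads in all 4 libraries, Rn7s2 had reads in 3, and Rn7s1 was listed in none. Embryonic fibroblasts are connective tissue cells grown from mouse embryos, and those used here were labelled TSC2+/+ (wild type for Tsc2, a brake on the mTOR pathway) on the strain C57BL/6J. The libraries compared were chromatin RNA after heat shock, chromatin RNA without heat shock, cytoplasmic RNA after heat shock and cytoplasmic RNA without heat shock. Heat shock meant 42 °C for 1 h and then 3 h back at 37 °C, so these libraries describe cells in recovery. Each group was 1 library, so no difference below has a replicate check or a significance test, and each value describes the libraries named.

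7SK RNA is a scaffold in the nucleus that holds the transcription elongation kinase P-TEFb in an inactive complex together with the proteins LARP7, MEPCE and HEXIM1. 7SL RNA is the backbone of the signal recognition particle, which brings ribosomes making secretory proteins to the endoplasmic reticulum. Rmrp and Rpph1 encode the RNA subunits of RNase MRP and RNase P, related enzymes that share most of their proteins. RNase MRP is nucleolar and cuts precursor ribosomal RNA, while RNase P trims the 5′ end of precursor tRNAs in the nucleus. Terc is the template RNA of telomerase, the enzyme that extends chromosome ends. RNA polymerase III makes the first 5 of the set, and RNA polymerase II makes Terc.

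The genes lie apart in the genome. In the RefSeq annotation of GRCm38.p6, Rn7sk is at chr9:78175302-78175633, Rmrp at chr4:43492785-43493059, Rpph1 at chr14:50807447-50807771 and Terc at chr3:96414437-96414833. The 7SL genes sit on the same chromosome, Rn7s1 at chr12:69159295-69159593 and Rn7s2 at chr12:69361183-69361481, with 201589 bp between them. None of the 6 overlaps another RefSeq gene. The nearest neighbour of Rpph1 is Parp2, which encodes a DNA repair enzyme, at a gap of 125 bp, and that of Rmrp is Ccdc107 at 280 bp. The names come from the definition of the set, since the files hold identifiers alone. As a check of that pairing, the gene spans implied by the RPKM values were 331 bp for Rn7sk, 300 bp for Rn7s2, 271 bp for Rmrp, 319 bp for Rpph1 and 423 bp for Terc, against RefSeq lengths of 332, 299, 275, 325 and 397 bp. The annotation used by the authors is thus not this RefSeq one, but each span is near the RefSeq length of its own gene.

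RPKM is a read count divided by gene length and by library size, as computed by the authors. It is per length, but whether these short structured RNAs were captured alike was not tested. Comparisons between genes therefore describe reads per length rather than numbers of molecules. RPKM is also a share of a library, so it does not say how much RNA a fraction held. Fewer cells and less RNA per cell cannot be told apart. Totals implied by the values were 19536459 reads in chromatin after heat shock, 18364642 in chromatin without it, 11131382 in cytoplasm after heat shock and 8292312 in cytoplasm without it. One gene, 1831 bp long, took 14.0% of reads in chromatin after heat shock against 8.01% without it, and 47.4% in cytoplasm after heat shock against 44.6% without it. What such a gene takes lowers the RPKM of all others, so values on other scales are given where they change a direction. The members together held 0.240% of chromatin reads after heat shock against 0.248% without it, and 0.285% of cytoplasmic reads after heat shock against 0.314% without it.

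Rmrp was the highest of the set in every library. It stood at 5339 RPKM in chromatin after heat shock and 7703 RPKM in chromatin without it, and at 5386 RPKM in cytoplasm after heat shock and 6448 RPKM in cytoplasm without it. By RPKM it ranked 12th and 7th among the genes listed in the chromatin libraries and 13th and 9th in the cytoplasmic ones. The highest value was in unstressed chromatin. Scaled so that each library's RPKM sums to 1000000, Rmrp ran wider, at 14091 in chromatin after heat shock and 31709 in chromatin without it, and at 5961 in cytoplasm after heat shock and 8359 in cytoplasm without it.

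Rn7sk came next. Its level was 2499 RPKM in chromatin after heat shock and 1023 RPKM in chromatin without it, and 2296 RPKM in cytoplasm after heat shock and 2173 RPKM in cytoplasm without it. The unstressed chromatin library was the low one, and the heat-shocked chromatin library was above all others. On the scale of the same RPKM sum, heat-shocked chromatin was at 6596, unstressed chromatin at 4212, heat-shocked cytoplasm at 2541 and unstressed cytoplasm at 2817, so there both chromatin libraries stood above both cytoplasm libraries. With the median ratio of genes averaging 1 RPKM or more set to 0, or with recovered reads scaled outside the 10 genes with most reads, heat-shocked chromatin was instead below heat-shocked cytoplasm, by log2 ratios of -0.80 and -1.57. The order of the fractions for Rn7sk therefore depends on the scale.

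Rpph1 was the member with reads in every library that leaned most to cytoplasm. It measured 324 RPKM in chromatin after heat shock and 93.7 RPKM in chromatin without it, against 1932 RPKM in cytoplasm after heat shock and 2053 RPKM in cytoplasm without it. In both cytoplasm libraries Rpph1 was nearly as high as Rn7sk, with an Rpph1 to Rn7sk ratio of 0.842 after heat shock and 0.945 without it. In chromatin this ratio was 0.130 after heat shock and 0.0916 without it. A ratio of 2 RNAs within a library does not depend on how that library is scaled.

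Terc was far lower, and its deposited RPKM was higher in chromatin. Its values were 48.5 RPKM in chromatin after heat shock and 65.5 RPKM in chromatin without it, and 20.2 RPKM in cytoplasm after heat shock and 28.2 RPKM in cytoplasm without it. They rest on 401, 509, 95 and 99 reads, so the cytoplasmic ones carry counting intervals of 16.3 to 24.7 RPKM after heat shock and 22.9 to 34.4 RPKM without it. Those of the chromatin libraries were 43.9 to 53.5 RPKM after heat shock and 60.0 to 71.5 RPKM without it, so both lay above both cytoplasmic intervals. On recovered reads scaled outside the 10 genes with most reads, Terc was lower in chromatin than in cytoplasm, at log2 ratios of -0.43 after heat shock and -0.44 without it. Intervals here and below are exact 95% Clopper-Pearson intervals on the reads behind each value. They cover counting error alone, since each group is 1 library. Reads without molecular barcodes can be copies of the same molecule, so the intervals may be too narrow.

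The 7SL genes were almost without reads. Rn7s2 had 0.512 RPKM in chromatin after heat shock, from 3 reads, and was not listed in chromatin without heat shock. In cytoplasm it had 5.09 RPKM after heat shock, from 17 reads, and 9.25 RPKM without it, from 23 reads. 7SL RNA is known as an abundant cytoplasmic RNA, and its genes are near-identical copies with many related sequences in the mouse genome. How reads that match several places were counted is not stated in the labels or files, so the level of 7SL RNA cannot be read from these 2 genes, and the comparisons below say little about it.

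The order of the listed RNAs by RPKM was the same in all 4 libraries: Rmrp, Rn7sk, Rpph1, Terc and Rn7s2, the last with no read in unstressed chromatin. The closest neighbours were Rn7sk and Rpph1 in unstressed cytoplasm, with counting intervals of 2118 to 2229 RPKM for Rn7sk and 1999 to 2109 RPKM for Rpph1, which do not overlap. Rpph1 and Terc were near each other in unstressed chromatin alone, where Rpph1 was at 1.43 times the level of Terc. That ratio was 6.68 in chromatin after heat shock, and in cytoplasm it was 95.8 after heat shock and 72.8 without it.

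**Figure D1:**
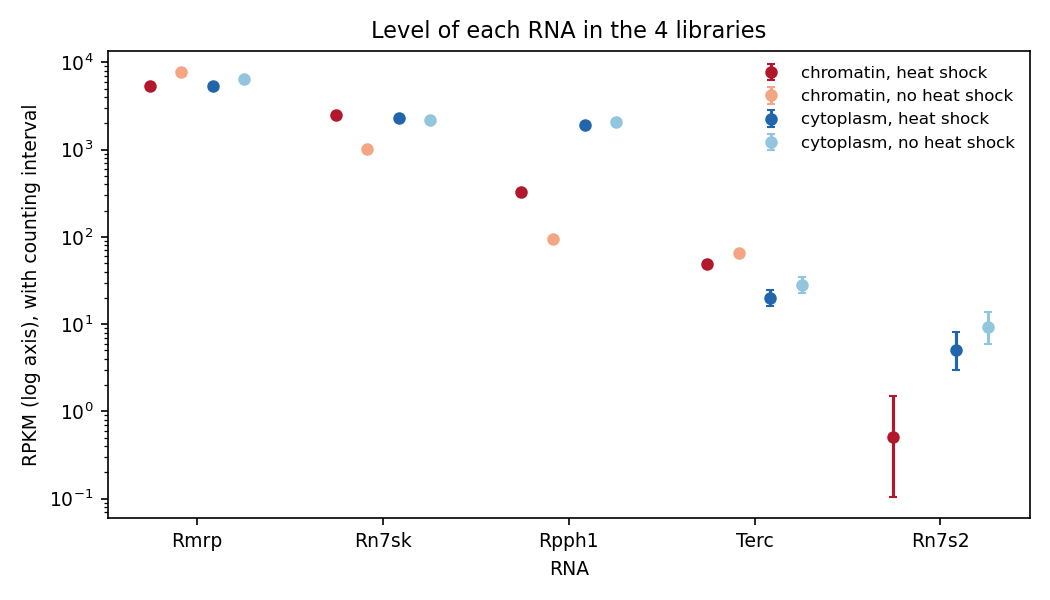
RPKM (log axis) of the 5 listed RNAs in each library, as points with exact 95% counting intervals, which are narrower than the symbol for most. Rmrp is between 5339 and 7703 RPKM in all 4 libraries, Rn7sk is lowest in unstressed chromatin, Rpph1 is far lower in both chromatin libraries than in cytoplasm, Terc has higher RPKM in chromatin, and Rn7s2 has no point for unstressed chromatin.

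The first comparison asked how the level of each RNA in the chromatin library differed after heat shock. Rpph1 and Rn7sk were higher, and Rmrp and Terc were lower. Rpph1, the RNase P RNA, was 3.46-fold higher after heat shock (interval 3.15 to 3.81). Rn7sk, the inhibitor of P-TEFb, was 2.44-fold higher (2.37 to 2.52). Rmrp had 0.693 times its unstressed level (0.683 to 0.704), and Terc 0.741 times (0.648 to 0.846).

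For calls across genes, log2((RPKM + 1)/(RPKM + 1)) was used. It was taken over genes averaging 1 RPKM or more across libraries (4688 kept genes) and with a read in both libraries compared. At least 2-fold higher in chromatin after heat shock were 2 of the 4 members measured, Rpph1 (1.78) and Rn7sk (1.29), against 10.4% of 4635 genes. Of genes averaging 5 RPKM or more, whose ratios the pseudocount shrinks less, 26.9% were at least 2-fold higher. Of the same 4 members, 0 were at least 2-fold lower, against 4.66% of genes. The median log2 ratio over the 4635 genes was 0.12, and Rmrp (-0.53) and Terc (-0.43) lay below it. On the same RPKM sum the median was -0.42 and Rn7sk was at 0.65, short of 2-fold, while Rpph1 was at 1.15, Rmrp at -1.17 and Terc at -1.07.

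How these RNAs differed relative to each other does not depend on the scale of the libraries, because it can be read from their ratios within a library. Rpph1 stood at 0.0607 times the level of Rmrp in chromatin after heat shock and at 0.0122 times in chromatin without it, a 4.99-fold difference (4.53 to 5.50). RNase P and RNase MRP share most of their proteins, and their RNAs thus did not keep a fixed ratio in chromatin. Rn7sk stood at 0.468 times the level of Rmrp after heat shock and at 0.133 times without it, a 3.52-fold difference (3.41 to 3.64). Rpph1 relative to Rn7sk differed less, by 1.42-fold (1.28 to 1.57). Terc relative to Rmrp was at 0.00909 after heat shock and 0.00851 without it, a ratio of 1.07 with an interval of 0.934 to 1.22 that includes no difference. In chromatin Rpph1 and Rn7sk were therefore both higher relative to Rmrp and Terc.

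**Figure D2:**
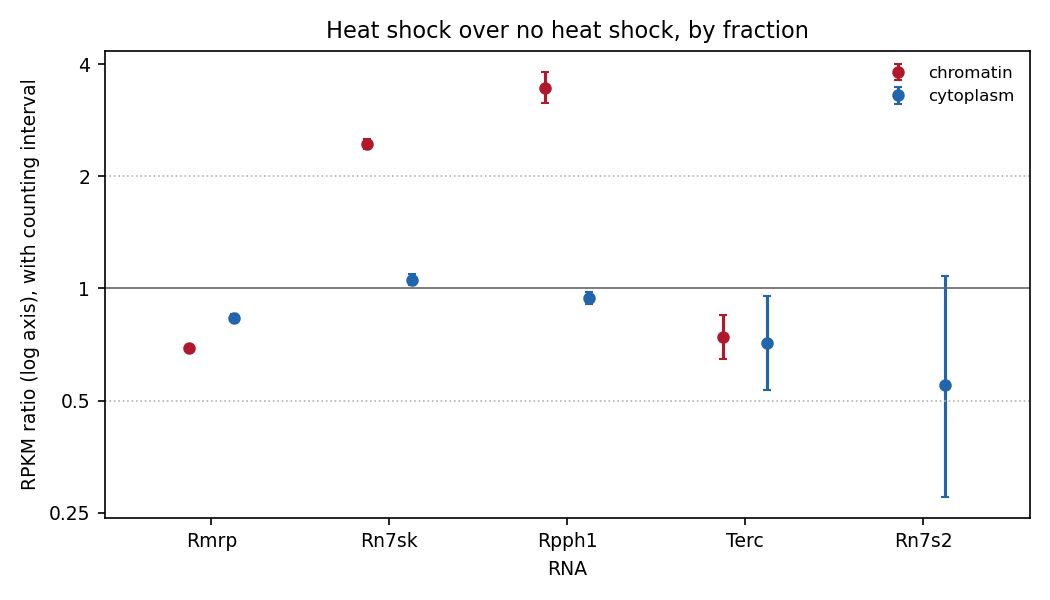
RPKM ratio (log axis) of heat shock over no heat shock for each RNA in chromatin and in cytoplasm, with exact 95% counting intervals. Dotted lines mark 2-fold either way. In chromatin Rn7sk (2.44) and Rpph1 (3.46) lie above the upper line, while in cytoplasm Rn7sk, Rmrp, Rpph1 and Terc lie between 0.715 and 1.06 and Rn7s2 is at 0.551 with a wide interval.

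In cytoplasm the same RNAs were closer to their unstressed levels. Rn7sk was 1.06-fold higher after heat shock (1.02 to 1.09), and Rpph1 had 0.941 times its unstressed level (0.908 to 0.975). Rmrp had 0.835 times (0.817 to 0.854), and Terc 0.715 times (0.534 to 0.957). For Rn7s2 the ratio was 0.551, with an interval of 0.276 to 1.08 that includes no difference. On the RPKM + 1 scale, 0 of the 5 members measured were at least 2-fold higher, against 3.4% of 4505 genes, and 0 were at least 2-fold lower, against 2.44%. Of genes averaging 5 RPKM or more, 8.56% were at least 2-fold higher and 8.7% at least 2-fold lower. On the RPKM + 1 scale the median log2 ratio of all genes was -0.25. There Rn7sk (0.08) and Rpph1 (-0.09) were above the median gene, Rmrp (-0.26) was at it, and Terc (-0.46) and Rn7s2 (-0.75) were below it. Without a pseudocount the median was -0.53, with Rmrp (-0.26) and Terc (-0.48) above it and Rn7s2 (-0.86) below it. Rn7sk turned to -0.15 on the same RPKM sum, and Rpph1 to 0.16 with the median set to 0, so no direction is given for these RNAs in cytoplasm.

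Whether heat shock moved an RNA alike in both fractions was read from the difference of the log2 ratios, chromatin minus cytoplasm. Rpph1 had a difference of 1.87, from 1.78 in chromatin and -0.09 in cytoplasm. Rn7sk had a difference of 1.21, from 1.29 and 0.08. Their ratios of ratios from reads were 3.68 (3.32 to 4.08) for Rpph1 and 2.31 (2.21 to 2.42) for Rn7sk. Rmrp differed by -0.27 and Terc by 0.04, and the ratio of ratios of Terc, 1.04, had an interval of 0.750 to 1.43. Thus for 2 of 4 members the chromatin ratio exceeded the cytoplasmic one by 1 or more, against 16.5% of 4473 kept genes with reads in all 4 libraries, and for 0 it was lower by 1 or more, against 4.52%. At a minimum mean of 5 RPKM, 46.5% of genes differed by 1 or more in either direction. The median difference over all genes was 0.37. After centring both fractions on their medians, Rpph1 kept a difference of 1.50 and Rn7sk had 0.84, while Terc turned to -0.33. These medians carry the pseudocount of 1 RPKM, which shrinks the ratios of low genes. Without a pseudocount the median difference was 0.70, against 1.88 for Rpph1 and 1.21 for Rn7sk.

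RNAs that were abundant in cytoplasm were often higher in heat-shocked chromatin, and this sets the members in context. There were 43 other genes averaging 1000 RPKM or more in cytoplasm, a class chosen after the values were seen, and 38 of them had spans of up to 200 bp. In chromatin after heat shock against chromatin without it, 30 of these 43 were at least 2-fold higher, and their median log2 ratio was 1.76. Rpph1 (1.78) was close to that median, with 21 of the 43 above it. For Rn7sk (1.29), 29 of the 43 were above it. Rmrp is also past this minimum in cytoplasm, but 42 of the 43 were above its -0.53, and 1 was below. In cytoplasm the class had a median of 0.20. Whether cytoplasmic RNA reached the heat-shocked chromatin library was not tested.

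**Figure D3:**
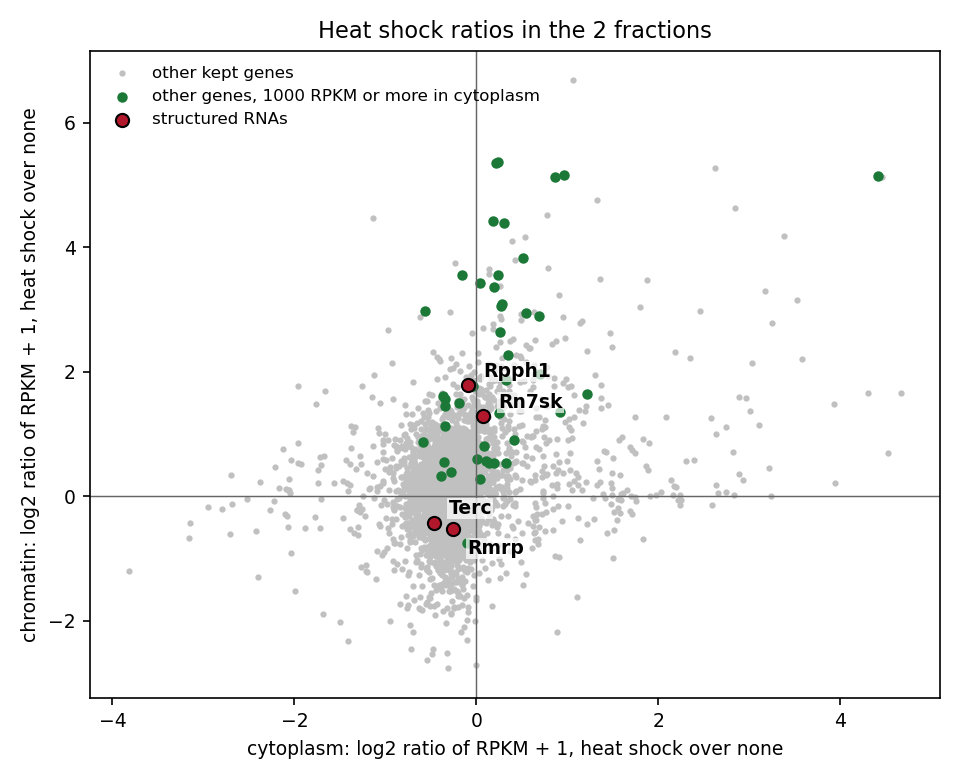
Log2 ratio of RPKM + 1, heat shock over no heat shock, in chromatin (vertical axis) against cytoplasm (horizontal axis) for kept genes with reads in all 4 libraries. Green points are the 43 other genes with at least 1000 RPKM in cytoplasm, and red points are Rn7sk, Rpph1, Rmrp and Terc. Rpph1 (1.78) and Rn7sk (1.29) lie among the green points, whereas Rmrp (-0.53) and Terc (-0.43) lie below 0 in chromatin.

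Genes of like span gave a second frame, since short genes differ from long ones in these libraries. Of the other kept genes with implied spans of 250 to 450 bp, 66 had reads in both chromatin libraries. Their median log2 ratio after heat shock was 0.39, with 16 at least 2-fold higher and 5 at least 2-fold lower. Of the 66, 6 were above Rpph1 and 11 above Rn7sk, while 7 were below Rmrp and 9 below Terc. In cytoplasm, 61 such genes had a median of -0.23, with 3 at least 2-fold higher and 23 at least 2-fold lower. Rmrp lay near the middle of them, with 31 above and 30 below. Genes this short can rest on few reads, as Rn7s2 did with 9.25 RPKM from 23 reads in unstressed cytoplasm. The spread of the class thus holds counting error, and its genes needed a read in both libraries.

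The next comparison set chromatin against cytoplasm in unstressed cells. Rpph1 was 21.9-fold lower in chromatin (20.1 to 24.0), and Rn7sk was 2.12-fold lower (2.05 to 2.20). Terc was 2.32-fold higher in chromatin (1.87 to 2.91), and Rmrp was 1.19-fold higher (1.17 to 1.22). Rn7s2 had no read in chromatin and 23 in cytoplasm. Taking 3 reads as the limit in the chromatin library, it was at least 17.0-fold lower there. This bound takes the 23 reads as exact and has no counting interval. On the RPKM + 1 scale, 1 of 4 members was at least 2-fold higher in chromatin (Terc, 1.19), against 32.4% of 4512 genes, and 2 were at least 2-fold lower (Rpph1, -4.44, and Rn7sk, -1.09), against 11.7%. Of genes averaging 5 RPKM or more, 27.2% were at least 2-fold higher and 42.7% at least 2-fold lower. The median log2 ratio of all genes was 0.58. RNase P works on nuclear precursor tRNAs, and 0.576% of the genes compared had a lower chromatin to cytoplasm ratio than its RNA. The chromatin fraction was the pellet left after lysis of nuclei. The ratio therefore does not say how this RNA was split between whole nuclei and cytoplasm.

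Of the directions between fractions in unstressed cells, that of Rpph1 was the same on all scales tried, from -6.11 to -2.78, and those of the other 3 were not. Rn7sk was at 0.58 on the same RPKM sum. Rmrp was at -0.32 with the median set to 0. Terc was at -0.44 when recovered reads were scaled to the same number outside the 10 genes with most reads. The order of the RNAs does not depend on the scale, and from the highest chromatin to cytoplasm ratio to the lowest it was Terc, Rmrp, Rn7sk and Rpph1. Each neighbour differed beyond the counting interval. Terc was at 1.94 times (1.56 to 2.44) the chromatin to cytoplasm ratio of Rmrp. Rn7sk was at 0.394 times (0.378 to 0.410) the ratio of Rmrp, and Rpph1 at 0.0969 times (0.0880 to 0.107) that of Rn7sk.

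Among other kept genes of 250 to 450 bp, 63 had reads in both unstressed libraries, and all 63 were above Rpph1 in their chromatin to cytoplasm ratio. Rn7sk lay in their middle, with 31 above and 32 below. Of the 63, 16 were above Rmrp and 12 above Terc. On the RPKM + 1 scale the class itself leaned to cytoplasm, with a median log2 ratio of -1.18. Class medians were not computed on other scales, and the same RPKM sum moved Rn7sk from -1.09 to 0.58. The 43 other genes averaging 1000 RPKM or more in cytoplasm, a class picked for high cytoplasmic values, had a median of -3.68. Of these 43, 31 were above Rpph1 and 12 below, while 35 were below Rn7sk and 36 below Rmrp.

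Chromatin was then set against cytoplasm after heat shock. On deposited RPKM, Rn7sk was 1.09-fold higher in chromatin than in cytoplasm (1.06 to 1.12). On the same RPKM sum its log2 ratio was 1.38 after heat shock and 0.58 without it. Rpph1 was 5.96-fold lower in chromatin (5.67 to 6.26), against 21.9-fold lower in unstressed cells. Rmrp had a chromatin to cytoplasm ratio of 0.991 (0.972 to 1.01), whose interval includes no difference, and Terc was 2.41-fold higher in chromatin (1.92 to 3.04). Rn7s2 was 9.95-fold lower in chromatin, from 3 and 17 reads, with an interval of 2.88 to 53.0. On the RPKM + 1 scale, 1 of 5 members was at least 2-fold higher in chromatin (Terc, 1.23), against 45.8% of 4575 genes, and 2 were at least 2-fold lower (Rpph1, -2.57, and Rn7s2, -2.01), against 6.93%. Of genes averaging 5 RPKM or more, 35.0% were at least 2-fold higher and 24.2% at least 2-fold lower, with 1 of 4 members each. Rn7sk (0.12) turned to -0.80 with the median set to 0, Rmrp (-0.01) to 1.24 on the same RPKM sum, and Terc to -0.43 on recovered reads scaled outside the 10 genes with most reads. This comparison and that of unstressed cells use the same libraries as the heat shock comparisons, so they restate those differences from another side.

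**Figure D4:**
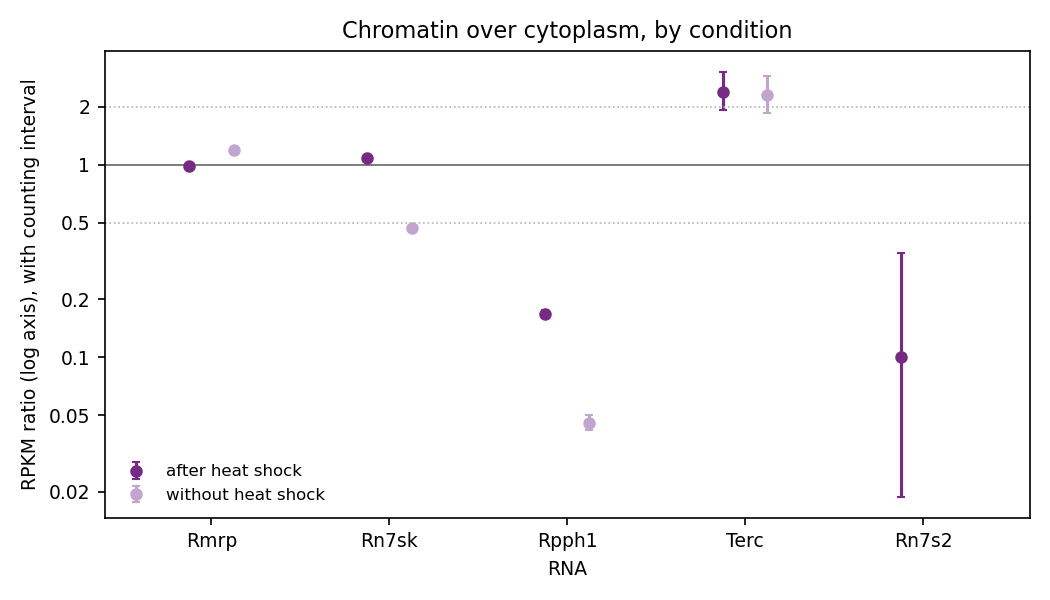
RPKM ratio (log axis) of chromatin over cytoplasm for each RNA, after and without heat shock, with exact 95% counting intervals. Dotted lines mark 2-fold either way. Terc lies above 2 in both conditions, Rmrp near 1, Rn7sk at 1.09 after heat shock and 0.471 without it, and Rpph1 at 0.168 after heat shock and 0.0456 without it. Rn7s2 has a point for heat shock alone.

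The order of the members by chromatin to cytoplasm ratio changed after heat shock in 1 place. Rn7sk was now at 1.10 times (1.06 to 1.13) the ratio of Rmrp, where it had been at 0.394 times in unstressed cells. Terc stood 2.43-fold above Rmrp (1.93 to 3.07), and Rpph1 was at 0.154 times (0.146 to 0.163) the ratio of Rn7sk. In both conditions Terc thus had the highest and Rpph1 the lowest chromatin to cytoplasm ratio of these 4 RNAs. Of the 43 genes abundant in cytoplasm, whose median log2 ratio was -1.67 after heat shock, 33 were then above Rpph1 and 10 below.

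A change of library scale adds nearly the same constant to the log2 ratio of every gene, so the spacing of these RNAs was fixed in advance. What the scale can change is the sign and size of each heat shock ratio in chromatin. Over the scales tried, Rpph1 ran from 1.15 to 2.02, Rn7sk from 0.65 to 1.51, Terc from -1.07 to -0.21 and Rmrp from -1.17 to -0.30. Each RNA kept its sign on these scales.

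**Figure D5:**
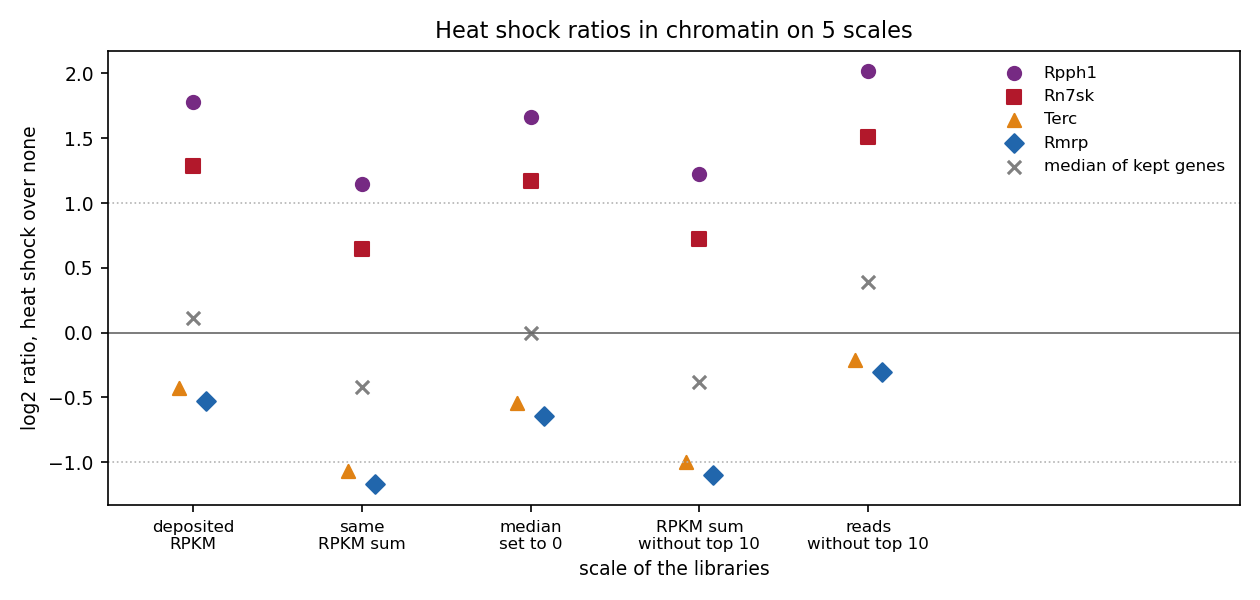
Log2 ratio of heat shock over no heat shock in chromatin for Rpph1, Rn7sk, Terc and Rmrp, and the median of kept genes, on 5 scales: deposited RPKM + 1, the same RPKM sum, the median set to 0, the same RPKM sum outside the 10 highest genes, and recovered reads scaled outside the 10 genes with most reads. Dotted lines mark 2-fold. Rpph1 and Rn7sk lie above 0 and Terc and Rmrp below 0 on each scale, while the median of kept genes lies between them.

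Genes with the most similar profile over the 4 libraries were sought by the Euclidean distance between log2(RPKM + 1) values, each gene centred on its own mean. The 3 nearest to Rpph1 were short genes of 102, 143 and 69 bp, at distances of 0.329 to 0.687, and all were abundant in cytoplasm. The 3 nearest to Rn7s2 were also short, at 191, 119 and 113 bp and distances of 0.280 to 0.295. Those nearest to Rn7sk had spans of 8943, 7632 and 3890 bp, with distances of 0.203 to 0.288, and were at 8.33 RPKM or less in every library. Those nearest to Rmrp (41827, 7036 and 8585 bp, distances 0.0533 to 0.110) and to Terc (14371, 62438 and 83867 bp, distances 0.0687 to 0.0920) were longer genes at 4.16 RPKM or less. None of these nearest genes was another member. Among the members themselves Terc was nearest to Rmrp (1.10), Rn7s2 was nearest to Rpph1 (1.26), and Rpph1 was farthest from Terc (4.97). With 4 libraries, and with low values drawn together by the pseudocount, such nearness is only a description.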

How the data were processed

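RNA-seq of chromatin and cytoplasmic RNA was used from 4 of 8 samples, grouped by their titles. The 2 m6A immunoprecipitations and 2 inputs were not analysed here. Per the labels' protocols, a pellet left after lysis of nuclei was the chromatin fraction, buffers held α-amanitin, and RNA of 40 to 60 nt was cut from a gel. The deposited values are RPKM per Ensembl gene, with genes lacking reads unlisted. Per the submitters' processing notes, cutadapt, STAR and build GRCm38 were used, with no versions. The sources used here do not name the counter, strand or handling of repeated matches.

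Library totals were recovered as the common divisor of whole values of 1/RPKM (tolerance 0.002, 20000 random pairs), and reads and spans as the smallest whole numbers giving the values (relative error 1e-12), which summed to 98.4% to 99.7% of the totals. The recovery was tested on libraries simulated from the recovered reads and spans. That test therefore cannot show that the reads and spans recovered from the real libraries are the true ones. Totals ran from 8292312 to 19536459 reads, which sets the intervals. Ratios used a pseudocount of 1 RPKM, which understates low genes, and folds of single RNAs none. Genes were kept at a mean of 1 RPKM. A fold against a library without reads is a bound at 3 reads. Intervals of ratios of ratios are exact conditional ones. The alternatives were other pseudocounts, filters and scales. Similar genes were the 3 nearest profiles.

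The members, lists and classes were chosen with earlier results of these data known. Lists of partner proteins, other small RNAs, fraction markers and cell type markers had been written by symbol, and were not used because the files hold Ensembl identifiers and the RefSeq table used here pairs 0 of them with symbols. The labelled cell type and fractions were therefore not checked against markers. Python 3.11.15, numpy 2.4.6, pandas 2.3.3, scipy 1.17.1 and matplotlib 3.10.9 were used.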

Additional observations from a re-analysis of the deposited data

Results flagged for a closer look

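Rpph1 was flagged because its heat shock log2 ratio was above 0 in the chromatin library and below 0 in the cytoplasm library, at 1.78 and -0.09, a difference of 1.87. A high chromatin ratio was not particular to it. Of the 43 other genes abundant in cytoplasm, 21 were above Rpph1 in chromatin, and their median was 1.76 there and 0.20 in cytoplasm. With 1 library per group this difference was not tested. The cytoplasmic value is small and turned to 0.16 with the median of kept genes set to 0 and to 0.17 on reads scaled outside the 10 genes with most reads, while the chromatin value was above 0 on each scale tried.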

How the results depend on the processing

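Counts of members past 2-fold depended mainly on the scale. In chromatin after heat shock, 1 member rather than 2 was higher on the same RPKM sum and 1 on the sum outside the 10 highest genes (Rmrp is itself among those 10), and 2 and 1 rather than 0 were lower. In cytoplasm after heat shock, 1 rather than 0 was lower on the sum outside the 10 highest. For chromatin against cytoplasm without heat shock, the members higher were 2 on the same sum, 0 with the median set to 0 and 0 on reads, rather than 1, and those lower were 1 on the same sum, 1 outside the 10 highest and 3 on reads, rather than 2. After heat shock, the members higher were 3 on the same sum, 0 with the median set to 0 and 0 on reads, rather than 1. Those lower were 4 on reads and 1 with a minimum mean of 5 RPKM, which removes Rn7s2, rather than 2. For the difference between fractions, 1 rather than 2 passed on the same sum, with the median set to 0 and outside the 10 highest.

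Of 134 single ratios and differences recomputed, 16 took the other sign, and 3 of these had passed 2-fold: Rn7sk without heat shock on the same sum (0.58 against -1.09), and Terc on reads (-0.44 against 1.19 without heat shock, -0.43 against 1.23 after it). These changes of sign follow from the scale chosen, which shifts all ratios of a comparison by nearly the same amount. Which scale is nearest to the RNA content of the cells was not tested. Summing both 7SL genes changed nothing, since Rn7s1 is listed in no library. No paired analysis was possible because each group is 1 library. Depth limits Rn7s2 (at most 23 reads) and cytoplasmic Terc (95 and 99 reads).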
